A study of Mus musculus with 6 samples.

Results

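The levels of 8 transcripts that are abundant in the cytoplasm of brain cells were followed through a study that sequenced the RNA of nuclei taken from formalin-fixed, paraffin-embedded (FFPE) blocks of mouse brain. They are Fth1, Ftl1, Apoe, Cst3, Clu, Actb, Tuba1a and Eef1a1, 8 of the 25696 mouse genes named in any of the deposited tables, and all 8 were found in each table analysed. They were chosen by name, as a gauge of how much cytoplasmic or free RNA came along with the nuclei. Nuclei came from 50 µm scrolls of brain labelled cortex, from C57BL/6J mice aged 8 to 12 weeks. No group carried a transgene or a drug.

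In the FFPE groups the paraffin was removed with xylene, either heated or at room temperature, or with mineral oil that was heated. The tissue was then rehydrated in ethanol and lysed, and the nuclei were sorted into plates. SCRB-seq, a pooled chemistry that reads transcript ends, covered 64 wells. Each of the 3 methods had 16, as had frozen nuclei, and every such set split into 8 wells of 10 and 8 wells of 100 nuclei. SMART-Seq2, which reads along the whole transcript, covered 12 wells: 1 each of 10, 50 and 100 nuclei for the 3 methods and for frozen nuclei. Single nuclei were read by SMART-Seq2 in plates (FFPE and frozen) and in droplets (FFPE). The frozen wells and nuclei are known from the authors' annotation tables, which give the left hemisphere for the FFPE nuclei of the plates and the right one for the frozen nuclei. Neither sex nor the animal behind a well or nucleus is given. Each bulk chemistry is 1 deposited sample, so its p-values measure only the spread between wells, which may be technical. In SCRB-seq, the wells of 1 method and 1 nuclei number also formed 1 library pool.

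Spliced messenger RNA collects in the cytoplasm, so a nucleus holds mostly unspliced transcripts and RNAs that are retained there, such as Malat1. Messages of very active housekeeping genes are spread through the whole cell, and those of secreted glial proteins are made in large amounts by astrocytes and microglia. When cells are broken open such messages pass into the liquid around the nuclei, and a part can remain on the nuclear surface or enter wells and droplets with it. Fth1 and Ftl1 encode the heavy and light chains of ferritin, which stores iron. Apoe and Clu encode apolipoproteins, and Cst3 encodes cystatin C, a secreted inhibitor of cysteine proteases. Actb encodes beta-actin, Tuba1a an alpha-tubulin of neurons, and Eef1a1 the factor that brings aminoacyl-tRNA to the ribosome.

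The 8 genes are short, which matters because nuclear libraries take many reads from introns. In the GENCODE M21 annotation of GRCm38 their spans from first to last base ran from 1941 to 13065 bases, with a median of 3919, against a median of 14481 over 17281 genes with a principal coding transcript. Fth1 lies at chr19:9980598-9985098 on the plus strand, and Ftl1 at chr7:45457944-45459884 on the minus strand. Apoe lies at chr7:19696109-19699188 (minus), Cst3 at chr2:148871722-148875692 (minus) and Clu at chr14:65968483-65981547 (plus). Actb lies at chr5:142903115-142906754, Tuba1a at chr15:98949837-98953703 and Eef1a1 at chr9:78478449-78489151, all on the minus strand.

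Some of these messages share long stretches with other genes, so that a read cannot always be given to 1 gene. Of all runs of 50 bases in the principal transcript, 78.9% were also found in another gene for Ftl1 (in 15 genes), 72.9% for Tuba1a (in 16) and 59.2% for Eef1a1 (in 20). The share was 14.2% for Actb and 4.01% for Fth1, and 0% for Apoe, Cst3 and Clu, which can be counted without this doubt. The sequences below are coding stretches of 50 bases on the sense strand, given because each stands whole in another gene. They lie at chr7:45459181-45459230 in exon 2 of 4 of Ftl1, inside a run of 147 bases shared with the pseudogene Ftl1-ps1, and at chr9:78480032-78480081 in exon 4 of 8 of Eef1a1, inside a run of 230 bases shared with Gm13456.
Ftl1: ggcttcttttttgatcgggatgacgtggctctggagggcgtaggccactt
Eef1a1: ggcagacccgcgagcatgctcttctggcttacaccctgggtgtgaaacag
No source used here gives how the authors' counting treated such reads, so the values of Ftl1, Tuba1a and Eef1a1 are uncertain in a way those of Apoe, Cst3 and Clu are not. Tuba1b, a close relative of Tuba1a, held 348 counts in the FFPE and 80 in the frozen SCRB-seq wells, where Tuba1a held 863 and 112.

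Depth differed between the wells. Mouse counts per well were 7512 to 147257 in FFPE and 17611 to 167144 in frozen SCRB-seq wells, and 422718 to 942966 in FFPE and 270363 to 891133 in frozen SMART-Seq2 wells. The mineral oil wells of 10 nuclei were the shallowest, with a median of 14557.5 counts. Levels below are counts per 1e6 mouse counts (CPM), and are compared between samples, not between genes. In the FFPE wells of SCRB-seq, Ctsc (cathepsin C) alone took 0.104% to 16.3% of the counts, against at most 0.142% in the frozen wells. Of 6 markers of cerebellar granule cells, the 5 measured all rose in FFPE against frozen wells of both chemistries. The list summed to a median of 1309 CPM in FFPE and 6.0 in frozen SCRB-seq wells, with Gabra6 and Cbln3 at 0 in every frozen well, although all samples are labelled cortex. The part of these differences in the results below was not tested.

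In SMART-Seq2 wells the summed share of the 8 transcripts was higher in FFPE than in frozen wells, and of the single genes Cst3 and Eef1a1 passed the test over all genes. Together the 8 took a mean of 0.248% ± 0.0671 of mouse counts in the FFPE wells (SD, n = 9; range 0.113% to 0.342%) and 0.0473% ± 0.0126 in the frozen wells (SD, n = 3; range 0.0331% to 0.0570%). All 9 FFPE wells were above the 3 frozen ones. With edgeR's quasi-likelihood test, 372 of 9092 genes (4.09%) had a Benjamini-Hochberg adjusted p under 0.05 and are here said to be called, and 132 of them (1.45% of those tested) were higher in FFPE. Of the 8 members, 2 were called and both rose. An unadjusted p under 0.05 was found for 7 members, beside 1346 of the 9092 genes. The members' median log2 fold change was 2.03, beside -0.13 over all genes tested.

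For the ferritin heavy chain Fth1, mineral oil wells of 100, 50 and 10 nuclei held 199, 513 and 605 CPM, heated xylene wells 568, 714 and 107, and room-temperature xylene wells 616, 610 and 22.3. The frozen wells held 66.4, 99.9 and 68.5 CPM. Of the FFPE wells, all stood above the frozen range but 1: the room-temperature xylene well of 10 nuclei was under it. The log2 fold change of 2.24 (SE 0.75) was not called (adjusted p = 0.112).

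Ftl1, the light chain, held 98.3, 106 and 295 CPM in mineral oil wells in the same order, 105, 47.2 and 90.1 in heated xylene wells and 104, 129 and 189 in room-temperature xylene wells, against 19.3, 33.3 and 22.4 in frozen wells. The groups did not overlap. The difference of 2.10 (SE 0.81) on the log2 scale was not called (adjusted p = 0.182).

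Apoe, the main lipid carrier secreted by astrocytes, held 191, 154 and 0 CPM in mineral oil wells, 320, 439 and 578 in heated xylene wells and 181, 326 and 10.2 in room-temperature xylene wells, against 62.1, 66.6 and 7.86 in frozen wells. The 0 in the mineral oil well of 10 nuclei allows up to 5.85 CPM (3 counts of 512577). Wells of 10 nuclei were the lowest of their set in 3 of the 4 groups, and the groups overlapped. The difference of 1.96 (SE 1.02) was not called (adjusted p = 0.387).

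Cst3 had the largest rise of the 8. Its level was 405, 826 and 76.1 CPM in mineral oil wells, 475, 564 and 1375 in heated xylene wells and 347, 635 and 134 in room-temperature xylene wells, against 36.4, 48.1 and 15.7 in frozen wells. Every FFPE well was above every frozen well, and the log2 fold change was 3.71 (SE 0.74, adjusted p = 0.00320). This call held when any 1 well was left out.

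Clu, a secreted chaperone also called apolipoprotein J, held 141, 66.2 and 31.2 CPM in mineral oil wells, 207, 81.6 and 449 in heated xylene wells and 143, 219 and 104 in room-temperature xylene wells, against 38.6, 55.5 and 28.1 in frozen wells. Only the mineral oil well of 10 nuclei lay inside the frozen range. The difference of 1.61 (SE 0.76) was not called (adjusted p = 0.322).

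Among the cytoskeletal genes, Actb held 315, 487 and 410 CPM in mineral oil wells, 402, 420 and 265 in heated xylene wells and 632, 550 and 386 in room-temperature xylene wells, against 176, 185 and 66.2 in frozen wells. Tuba1a held 153, 187 and 242 CPM, 241, 175 and 329 CPM, and 308, 178 and 95.4 CPM in the same sets, against 62.1, 51.8 and 60.6 in frozen wells. Both genes were above the frozen range in all 9 FFPE wells, yet neither difference was called. It was 1.34 (SE 0.48, adjusted p = 0.137) for Actb and 1.59 (SE 0.63, adjusted p = 0.193) for Tuba1a.

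Eef1a1 held 338, 315 and 587 CPM in mineral oil wells, 317, 250 and 226 in heated xylene wells and 377, 360 and 189 in room-temperature xylene wells, against 57.9, 29.6 and 61.7 in frozen wells. The groups were well apart, and the log2 fold change was 2.41 (SE 0.58, adjusted p = 0.0155). Without any 1 of the 3 frozen wells the adjusted p rose to between 0.0694 and 0.139, and the call was lost. In all, 5 members (Ftl1, Cst3, Actb, Tuba1a and Eef1a1) had every FFPE well above every frozen well, a pattern found in 338 of the 9092 genes tested (3.72%). DESeq2's Wald test called 640 genes (7.04%) and 6 members: the 5 named and Fth1.

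**Figure D1:**
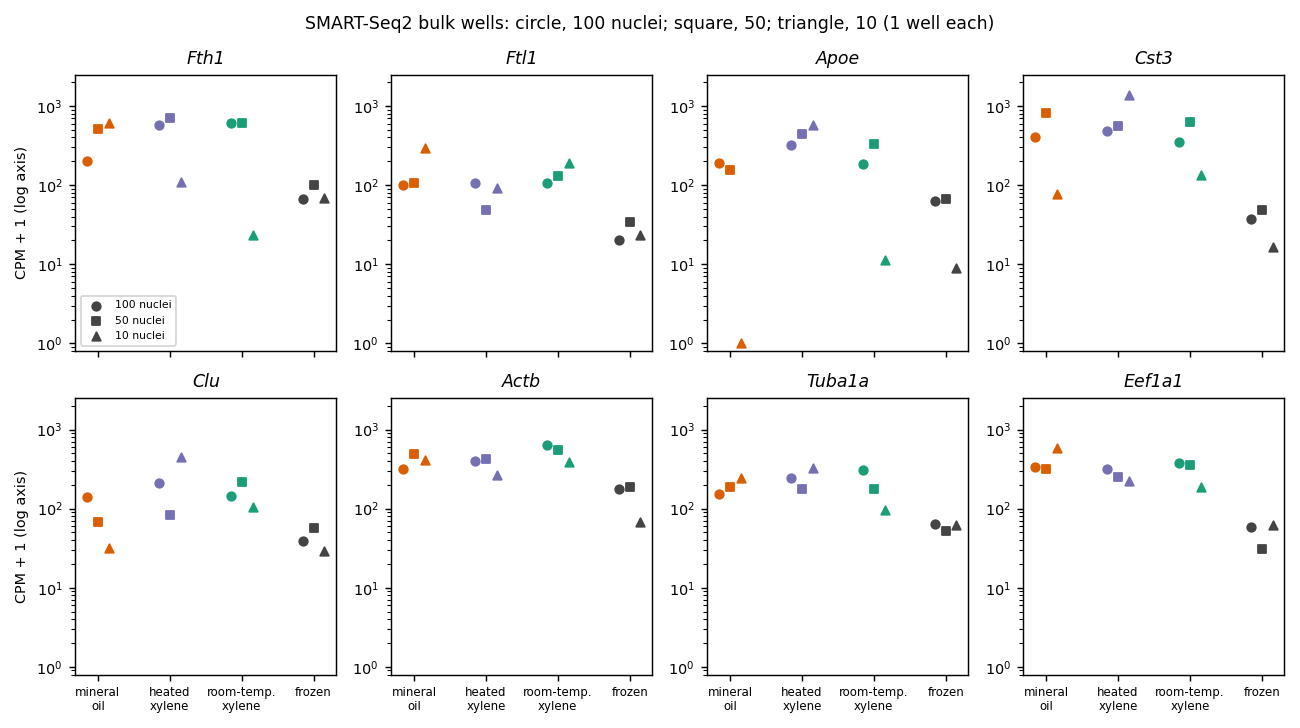
Level of each of the 8 genes (vertical log axis, CPM + 1) in the 12 SMART-Seq2 wells, by deparaffinization method and frozen nuclei, with 1 point per well and the symbol giving the number of nuclei. The 3 frozen wells lie under all FFPE wells for Ftl1, Cst3, Actb, Tuba1a and Eef1a1 and overlap them for Fth1, Apoe and Clu, and the Apoe point of the mineral oil well of 10 nuclei is at 0 CPM.

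In SCRB-seq the picture was narrower: Actb, Tuba1a and Eef1a1 rose in FFPE wells, and the ferritin and secreted genes did not pass the test. The fit called 857 of 1478 genes (58.0%), 447 of them higher in FFPE (30.2%), so a call was common here. Of the 7 members tested 3 were called, all higher. Ftl1 was too low to be tested. The members' median log2 fold change was 0.63, beside 0.00 over all genes tested.

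Actb held 0, 377 and 1370 CPM (lowest, median and highest) in the 48 FFPE wells and 20.2, 66.2 and 266 in the 16 frozen wells. Its log2 fold change was 2.22 (SE 0.36, adjusted p = 1.61e-07), and the ranges overlapped. Below the frozen range lay 5 mineral oil wells of 10 nuclei at 0. In all settings that gave a value the change stayed between 1.40 and 2.50 and was called. Of the members, Actb alone was called in both sizes of well, at 2.39 (SE 0.30) in wells of 100 nuclei alone and 1.40 (SE 0.50) in wells of 10 alone. The fit of 100 nuclei called 1119 of 2440 genes (45.9%) and 4 of 8 members. That of 10 nuclei called 478 of 783 genes (61.0%) and 2 of 6 members tested.

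Tuba1a held 0, 248 and 869 CPM in FFPE wells and 29.6, 118 and 317 in frozen wells, a difference of 1.08 (SE 0.34, adjusted p = 0.00500). Eef1a1 held 0, 208 and 1173 CPM against 0, 106 and 203, a difference of 1.17 (SE 0.36, adjusted p = 0.00376). Both ranges overlapped. The sizes of well gave different calls. Tuba1a was called in wells of 100 nuclei (1.48, adjusted p = 0.000135) and not in wells of 10 (0.47, adjusted p = 0.498), and Eef1a1 in wells of 10 (2.12, adjusted p = 0.00337) and not in wells of 100 (0.38, adjusted p = 0.417). With DESeq2's size factors in edgeR the median of all genes moved to -0.58. On that scale the values were 0.51 (adjusted p = 0.199) for Tuba1a and 0.55 (adjusted p = 0.160) for Eef1a1, and both calls were lost.

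Fth1 held 0, 448 and 1597 CPM in FFPE wells and 0, 495 and 830 in frozen wells, a difference of 0.08 (SE 0.29, adjusted p = 0.835). Ftl1 held 0, 72.3 and 628 CPM against 0, 120 and 227. Both ferritin genes had somewhat lower FFPE medians and wider FFPE ranges.

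Apoe held 69.8, 349 and 3107 CPM in FFPE wells and 20.2, 570 and 2109 in frozen wells, and was the 1 member with a negative difference (-0.63, SE 0.32, adjusted p = 0.0848). In wells of 100 nuclei it fell by 1.55 (SE 0.26, adjusted p = 3.21e-06) in a fit that called 1119 of 2440 genes (45.9%). There the FFPE wells held 127, 331 and 911 CPM and the frozen wells 449, 1085 and 2033. In wells of 10 nuclei the difference was 0.41 (SE 0.51, adjusted p = 0.502). With DESeq2's size factors the value over all wells was -1.28 (adjusted p = 0.000223), which passed the threshold in a fit that called 66.5% of genes.

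Cst3 held 90.4, 867 and 1917 CPM in FFPE wells and 0, 515 and 1525 in frozen wells (0.49, SE 0.30, adjusted p = 0.161). Clu held 0, 243 and 873 CPM against 0, 107 and 919 (0.63, SE 0.37, adjusted p = 0.139). Without the 8 mineral oil wells of 10 nuclei both were called, at 0.77 (adjusted p = 0.0174) and 1.01 (adjusted p = 0.00137), in a fit that called 1312 of 2569 genes (51.1%). In wells of 100 nuclei alone Clu was called as well, at 0.97 (SE 0.27, adjusted p = 0.00255), and Cst3 was not (-0.08, adjusted p = 0.815). No member had every FFPE well above every frozen well, a pattern found in 1.29% of the genes tested.

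**Figure D2:**
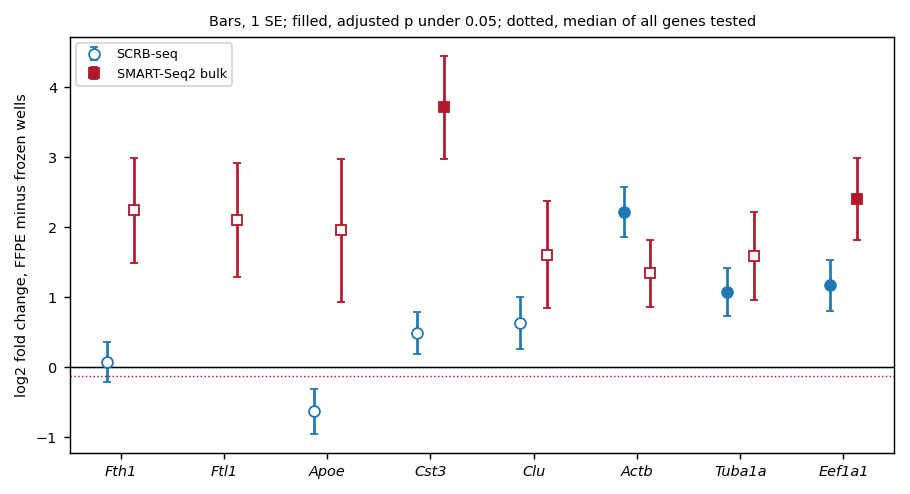
Log2 fold change of FFPE against frozen wells (vertical axis) for the 8 genes in SCRB-seq (circles) and SMART-Seq2 (squares), with bars of 1 SE and filled symbols for an adjusted p under 0.05. Cst3 and Eef1a1 are filled in SMART-Seq2, Actb, Tuba1a and Eef1a1 in SCRB-seq, and Apoe in SCRB-seq is the 1 point under 0. Ftl1 was not tested in SCRB-seq and has no circle.

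The other RNAs that mark cytoplasm and nucleus moved as follows in FFPE against frozen wells. Of 20 other abundant cytoplasmic messages, 7 rose and 2 fell among 16 tested in SCRB-seq, where 58.0% of all genes were called, and 6 rose and 1 fell among 20 tested in SMART-Seq2, where 4.09% were. Their medians were 0.64 and 1.36, of which the first was close to that of the 7 members tested in SCRB-seq. Ppia (cyclophilin A) stood at 176 to 423 CPM in the FFPE and 12.9 to 18.5 in the frozen SMART-Seq2 wells, a rise of 3.86 (SE 0.69). Cox8a, a subunit of cytochrome c oxidase, rose by 3.45 (SE 0.73). Nrgn, a calmodulin-binding message of cortical neurons, fell by 2.93 (SE 0.33) in SCRB-seq and by 3.17 (SE 0.72) in SMART-Seq2.

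Of the mitochondrially encoded genes, 7 of 8 tested rose in SCRB-seq and 1 (mt-Co1) fell, and 7 of 9 tested rose in SMART-Seq2. Their sum took 0.606% of counts in FFPE and 0.0343% in frozen SMART-Seq2 wells, with ranges of 0.402% to 0.815% and 0.0249% to 0.0396%. Of the nuclear long noncoding RNAs, 4 of 6 tested fell and 1 (Neat1) rose in SCRB-seq, and 4 of 7 tested fell in SMART-Seq2. Malat1 took 1.27% of SCRB-seq counts in FFPE wells (0.234% to 2.81%) and 9.19% in frozen wells (6.70% to 11.4%). In SMART-Seq2 Malat1 took 1.42% and 1.96%. Leaving Malat1, the mitochondrial genes or Ctsc out of the denominator moved the members' mean share by less than 1 SD over wells in each group.

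The calls among genes that work beside the members stand against 58.0% of all genes called in SCRB-seq and 4.09% in SMART-Seq2. Of 16 genes of iron storage and handling besides ferritin, 0 could be tested in SCRB-seq and 0 of 10 were called in SMART-Seq2 by edgeR. Of 14 genes of lipoprotein and amyloid handling, 4 were tested in SCRB-seq, where Abca1 (a cholesterol exporter) rose by 1.74 and Sort1 (a sorting receptor) fell by 1.58, and 0 of 11 were called in SMART-Seq2. Of 13 cathepsins and cystatins, both tested in SCRB-seq rose (Ctsc by 7.25 and Ctsb by 2.05), and 0 of 9 were called in SMART-Seq2. Of 19 actin and tubulin genes, Tubb4a rose and Cfl1 fell among 3 tested in SCRB-seq, and 1 of 18, Tmsb4x (thymosin beta 4), rose by 3.96 in SMART-Seq2. Of 15 translation factors, 0 of 1 was called in SCRB-seq and 1 of 14, Eif1, rose by 2.93 in SMART-Seq2.

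Some markers of the glial cells that make the secreted members rose in FFPE wells, where 30.2% of all genes tested in SCRB-seq and 1.45% in SMART-Seq2 were called higher. The astrocyte list rose in 4 of 5 genes tested in SCRB-seq and 1 of 10 in SMART-Seq2, and fell in none by edgeR. Its sum ranged from 1342 to 7370 CPM in FFPE and 612 to 1643 in frozen SCRB-seq wells. The oligodendrocyte list rose in 3 of 4 and 2 of 10 genes. Of the microglia list 0 genes could be tested in SCRB-seq and 0 of 7 were called in SMART-Seq2, and Csf1r, C1qb and Tyrobp were at 0 in all frozen SCRB-seq wells. Their part in the members' levels was not tested. In bulk wells, fewer cells of a type and less RNA per cell cannot be told apart.

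Between the deparaffinization methods, the clearest pattern in SCRB-seq was lower member levels after mineral oil than after heated xylene. The 8 transcripts took 0.246% ± 0.137 of mouse counts after mineral oil, 0.445% ± 0.123 after heated xylene and 0.291% ± 0.0778 after room-temperature xylene (SD, n = 16 wells each), beside 0.244% ± 0.151 in the 16 frozen wells. Against heated xylene, the mineral oil fit called 92 of 1080 genes (8.52%), 75 of them lower (6.94%). Of 7 members tested 4 fell: Eef1a1 by 1.77 (SE 0.45, adjusted p = 0.00668), Actb by 1.34 (SE 0.38, adjusted p = 0.0154), Fth1 by 1.12 (SE 0.36, adjusted p = 0.0389) and Cst3 by 0.98 (SE 0.31, adjusted p = 0.0365). With DESeq2's size factors the calls of Actb (adjusted p = 0.0610), Fth1 (adjusted p = 0.108) and Cst3 (adjusted p = 0.0891) were lost, and with library size alone those of Fth1 (adjusted p = 0.0829) and Cst3 (adjusted p = 0.0627).

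Much of this also rested on the mineral oil wells of 10 nuclei. In them Clu and Ftl1 had 0 of 115185 counts over all 8 wells, which allows up to 26.0 CPM, and Actb was at 0 in 5 of 8. Actb held 0, 0 and 199 CPM there (lowest, median and highest) and 581, 915 and 1370 in heated xylene wells of 10 nuclei. In wells of 100 nuclei the 2 methods gave 283, 416 and 587 CPM and 177, 421 and 898 CPM. Without those 8 wells, or in wells of 100 nuclei alone, Eef1a1 was the only member still called, in fits that called 7.98% and 13.1% of genes. The change of Eef1a1 was then -2.32 (SE 0.50) or -1.76 (SE 0.48), while that of Actb was -0.72 (adjusted p = 0.193) or 0.0090 (adjusted p = 0.986).

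Eef1a1 was lower after mineral oil than after either xylene in wells of 100 nuclei. It held 12.2, 50.9 and 192 CPM in mineral oil wells of 100 nuclei, 60.4, 194 and 706 in heated xylene wells and 160, 208 and 363 in room-temperature xylene wells. In wells of 10 nuclei its medians were 90.8, 494 and 235 CPM, and neither difference was called there (-1.62, SE 0.70, adjusted p = 0.104 against heated and -1.43, SE 0.70, adjusted p = 0.176 against room-temperature xylene). In those wells Cst3 was the member called against both xylenes, at -2.74 (SE 0.35) and -2.79 (SE 0.35). Those fits called 106 and 97 of 509 genes (20.8% and 19.1%). Fth1 and Actb were also called lower against heated xylene there, and Apoe was called higher against room-temperature xylene. Over both sizes of well, Eef1a1 fell by 1.49 after mineral oil against room-temperature xylene (SE 0.46, adjusted p = 0.0250), in a fit that called 111 genes (10.3%).

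Apoe was lower after room-temperature xylene than after either other method over all wells. Its lowest, median and highest values were 69.8, 235 and 490 CPM there, 152, 741 and 2030 after heated xylene and 187, 558 and 3107 after mineral oil. It rose by 1.71 in heated against room-temperature xylene (SE 0.36, adjusted p = 0.00480), 1 of 21 genes called (1.94%) and of 11 called higher (1.02%). Against room-temperature xylene it also rose after mineral oil, by 1.32 (SE 0.37, adjusted p = 0.0147). That call was lost in wells of 100 nuclei alone (0.51, adjusted p = 0.404), without the mineral oil wells of 10 nuclei (0.84, adjusted p = 0.199) and with no filter on low counts (0.98, adjusted p = 0.0682). In the first 2 of these settings Clu was called higher instead (adjusted p = 0.000824 and 0.000330), in fits that called 9.11% and 7.61% of genes. The medians differed most in wells of 10 nuclei, at 746, 1317 and 133 CPM for mineral oil, heated xylene and room-temperature xylene, whereas wells of 100 nuclei had medians of 388, 307 and 344 CPM. In wells of 100 nuclei alone Apoe was not called between the xylenes, and Cst3 and Clu were, in a fit that called 5.99% of genes.

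In SMART-Seq2, with 3 wells per method, 0 of 8372 genes were called by edgeR in any pair of methods (0%), and 0 members. At an unadjusted p under 0.05 there were 314 genes for mineral oil against heated xylene, 199 for heated against room-temperature xylene and 379 for mineral oil against room-temperature xylene, with no member among them. DESeq2's Wald test called 15, 1 and 18 genes and again 0 members. The members' mean shares were 0.225% after mineral oil, 0.291% after heated xylene and 0.228% after room-temperature xylene.

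**Figure D3:**
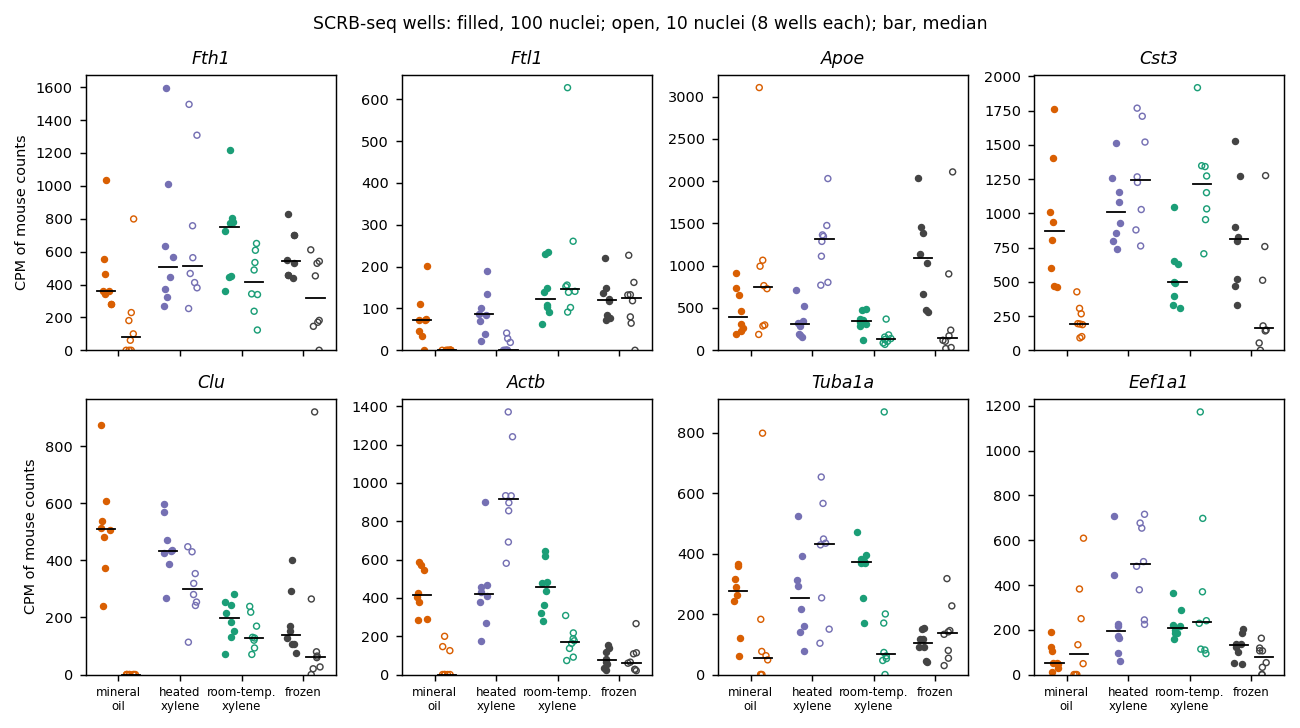
Level of each of the 8 genes (vertical axis, CPM of mouse counts) in the 64 SCRB-seq wells by method, with filled points for 100 nuclei, open points for 10 nuclei and bars for the median of 8 wells. The open mineral oil points of Clu and Ftl1 all lie at 0, and the open heated xylene points of Actb and Apoe lie above most other wells.

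Between wells of 10 and of 100 FFPE nuclei most genes differed, and the members were called about as often as all genes. From 100 to 10 nuclei the fit called 1436 of 2511 genes (57.2%), 1186 of them lower (47.2%), and the median of all genes was -0.79. Of the 8 members 4 fell and 1 rose. Clu fell by 2.89 (SE 0.43), Ftl1 by 2.43 (SE 0.50), Actb by 0.95 (SE 0.25) and Fth1 by 0.83 (SE 0.27), and Eef1a1 rose by 0.89 (SE 0.30). With no filter on low counts the Eef1a1 call was lost (0.64, adjusted p = 0.129). The falls of Actb and Fth1 were near the median of all genes, and those of Clu and Ftl1 were well past it. This contrast weights the deparaffinization methods equally, and the mineral oil wells of 10 nuclei held no count of Clu or Ftl1. How far the falls of these genes rest on those wells was not tested.

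In frozen wells 1 gene was called between 10 and 100 nuclei (0.0398%), and 0 members by edgeR or DESeq2, while 187 genes and 3 members had an unadjusted p under 0.05 by edgeR. Fewer wells stood behind that contrast, 8 against 8. Frozen Apoe held 449, 1085 and 2033 CPM in wells of 100 nuclei and 20.2, 144 and 2109 in wells of 10, a difference of -1.59 (SE 0.49, adjusted p = 0.200). Frozen Cst3 had medians of 813 and 163 CPM (-1.37, SE 0.40, adjusted p = 0.157). The difference between the FFPE and the frozen contrast was itself called for 417 genes (16.6%) and 4 members: Apoe and Eef1a1 were relatively higher in FFPE wells of 10 nuclei, by 2.16 (SE 0.56) and 1.88 (SE 0.65), and Clu and Ftl1 relatively lower, at -2.50 (SE 0.68) and -2.03 (SE 0.73). The values of Clu and Ftl1 include the mineral oil wells of 10 nuclei, which held no count of either gene. Since 1 nuclei number of 1 method was 1 library pool, the nuclei number and the pool cannot be told apart.

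Single nuclei in plates gave uneven levels of the same 8 genes, which differed between nuclei and between plates. The values below weight each nucleus equally and carry no test, since nuclei are not replicates and the animal behind each is not given. Frozen nuclei numbered 137 on 2 plates, with a median of 255329 counts each. The FFPE nuclei of the whole-series table numbered 143, with a median of 47887 counts, and 134 of them equal those of batch 2 (plates MB14 and MB16) at each of 21117 shared genes. They are counted once here. Batch 1 added 98 nuclei (plates MB17 and MB18, median 180584 counts).

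The 8 transcripts together took a mean of 1.61% of counts per FFPE nucleus of the whole-series table (median 0.893%) and 0.833% per frozen nucleus (median 0.488%). In batch 1 they took 0.356%, or 0.200% without its highest nucleus. Plates of 1 batch differed: 1.95% in MB14, 1.25% in MB16, 0.775% in MB17 and 0.189% in MB18, against 0.932% and 0.733% in the frozen plates. Both plates of batch 2 were above both frozen plates, and MB18 was far under them. MB17 rests on 1 nucleus and stood at 0.228% without it. The mean for FFPE nuclei was thus higher than that for frozen nuclei in batch 2 and lower in batch 1.

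The means and medians disagreed gene by gene. Fth1 had a mean of 3580 CPM in FFPE and 1473 in frozen nuclei, but medians of 419 and 539. Ftl1 had means of 1151 and 203 and medians of 7.50 and 18.1. The FFPE nuclei held a few very high values: in plate MB16 the highest Fth1 value was 134291 CPM, and in MB17 it was 155221 CPM, from 30513 counts of 1 nucleus, without which the mean of that plate fell from 5937 to 408.

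Apoe had means of 4455 and 2390 CPM and medians of 1012 and 844 in FFPE and frozen nuclei. Cst3 had means of 4183 and 2067 and medians of 495 and 489. Clu had nearly equal means, 957 and 973, with medians of 10.4 and 360. By the median, FFPE nuclei of the whole-series table thus held about as much Apoe and Cst3 as frozen nuclei, and less Clu. This did not hold in each plate: in batch 2 the medians were 1477 CPM in MB14 and 383 in MB16 for Apoe and 1499 and 118 for Cst3, and over the 98 nuclei of batch 1 both medians were 0.

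Actb had means of 349 and 480 CPM, Tuba1a of 511 and 468, and Eef1a1 of 869 and 280. Their medians were 65.5 and 103, 65.3 and 183, and 52.5 and 47.5. The cytoskeletal genes, whose levels were higher in FFPE than in frozen bulk wells, were not higher in FFPE nuclei by the median. Eef1a1 was higher by both in FFPE nuclei of the whole-series table, with medians close together, but had a median of 22.5 CPM in MB16 and, in batch 1, a mean of 170 and a median of 0.

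Fewer FFPE than frozen nuclei held any count of most members. The shares with at least 1 count were 78.3% and 91.2% for Fth1, 52.4% and 78.1% for Clu, 70.6% and 85.4% for Actb and 68.5% and 80.3% for Tuba1a, in FFPE and frozen nuclei. For Cst3 they were 83.2% and 76.6%, but 33.7% in the FFPE nuclei of batch 1, where the shares of the other members were 16.3% to 66.3%. Once every nucleus was thinned to 10000 counts, which left out 8 FFPE and 10 frozen nuclei, the shares were 68.1% and 72.4% for Fth1, 38.5% and 63.8% for Clu, 48.1% and 57.5% for Actb, 48.1% and 60.6% for Tuba1a, and 65.9% and 64.6% for Cst3. At equal depth the gap shrank for Fth1 and stayed for Clu, whose exact binomial 95% intervals before thinning were 43.9% to 60.9% and 70.2% to 84.7%. These intervals cover counting error only. A median of 6 members was found per FFPE nucleus of the whole-series table, 7 per frozen nucleus and 3 per nucleus of batch 1.

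**Figure D4:**
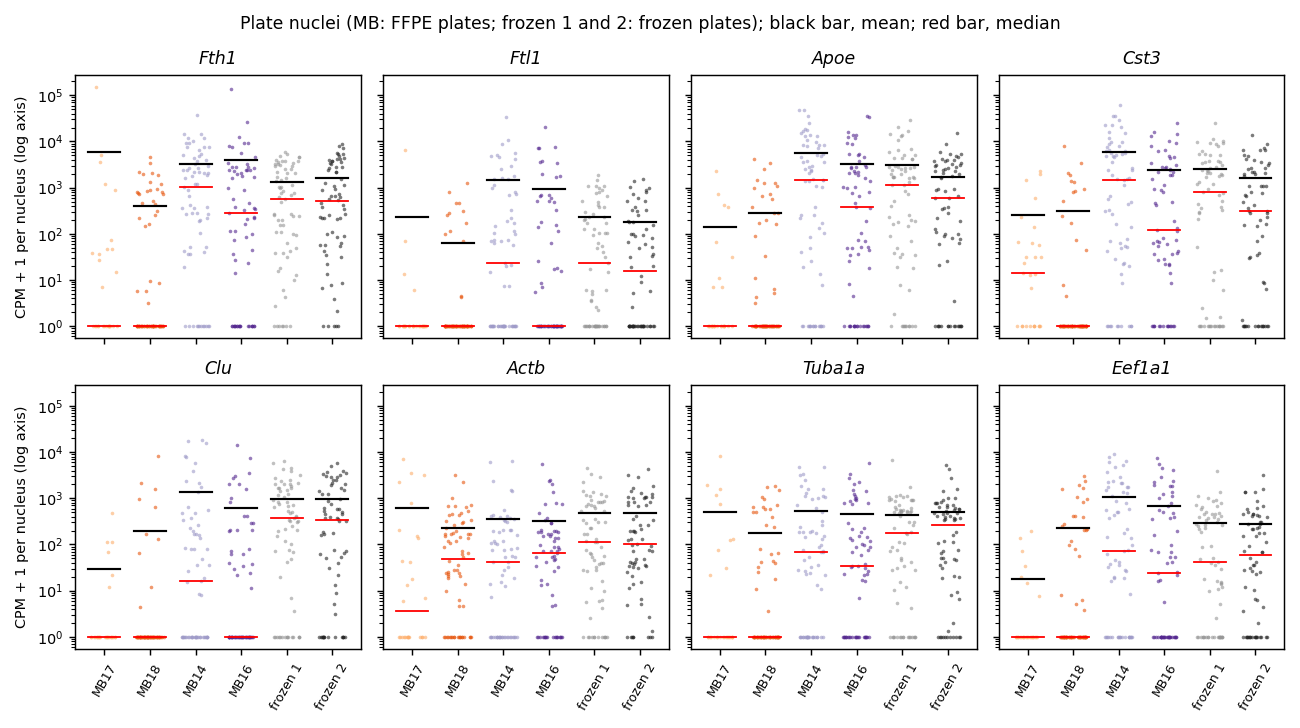
Level of each of the 8 genes (vertical log axis, CPM + 1) in every plate nucleus, by FFPE plate (MB17 and MB18 of batch 1, MB14 and MB16 of batch 2) and frozen plate, with black bars for means and red bars for medians. Points at the bottom are nuclei without a count, red bars lie there for most genes in MB17 and MB18, and black bars lie far above red ones in FFPE plates.

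Markers of other cell types were uneven over the nuclei as well. The choroid plexus list summed to a mean of 3505 CPM in FFPE and 1006 in frozen nuclei, the haemoglobins to 3967 and 999, the microglia list to 1262 and 467, and the cerebellar granule list to 869 and 29.9. A list of 16 neuronal genes with long introns summed to 21178 and 30993 CPM. These FFPE values are of the whole-series table. In batch 1 the same lists summed to 249, 76.2, 204, 1040 and 44391 CPM, so that of these 5 lists the granule list was above frozen nuclei in both sets of FFPE nuclei, and the other 4 lay on the opposite side of the frozen value in batch 1. The oligodendrocyte list (3439 and 3996 against 2364 CPM in frozen nuclei) and the neuron list (5541 and 5481 against 4779) were above it in both sets. Their part in the members' levels was not tested.

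In frozen nuclei the members rose and fell together. Spearman's rho between pairs of members over the 137 frozen nuclei ranged from 0.30 to 0.71 with a median of 0.51 over the 28 pairs, and thinning to equal depth left a median of 0.45. The highest were Apoe with Cst3 (0.71), Fth1 with Actb (0.67) and Ftl1 with Eef1a1 (0.63). In FFPE nuclei of the whole-series table the range was -0.05 to 0.46 with a median of 0.27, and in batch 1 the median was 0.07. Nuclei of 1 plate may not be independent, and shares of 1 total are not free of each other, so these values are descriptions.

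The summed share of the 8 members in frozen nuclei went up with that of the other abundant cytoplasmic messages (rho 0.57) and of the haemoglobins (0.50), the messages of red blood cells. It went down with that of the long-intron neuronal genes (-0.52) and of the nuclear long noncoding RNAs (-0.56), and had a rho of 0.07 with the total count. For the mitochondrial genes rho was 0.18 on 1 frozen plate and 0.58 on the other. In FFPE nuclei of the whole-series table the values were 0.20, 0.19, -0.39, -0.06 and 0.05, in the order given, and that for the mitochondrial genes was -0.17. In batch 1 they were 0.05, 0.08, -0.40, -0.12 and -0.20. The value for the mitochondrial genes there was 0.18, with -0.12 on plate MB17 and 0.33 on plate MB18.

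In droplets, all 12 annotated classes held the 8 members at a low share, which was higher in Endothelial, Microglia, Oligodendrocyte, Fibroblast and Astrocyte nuclei than in OPC and ExNeuron nuclei. The library held 7031 FFPE nuclei with 235 to 998 UMIs each (median 325), where a UMI stands for 1 captured molecule. The members took 0.563% of all UMIs (95% interval 0.554% to 0.572%). Class levels below are summed UMIs as CPM, with exact Poisson 95% intervals in parentheses. The share was 0.813% in Endothelial, 0.782% in Microglia, 0.733% in Oligodendrocyte, 0.722% in Fibroblast and 0.692% in Astrocyte nuclei. It was 0.579% in OPC nuclei and 0.475% to 0.582% in the 6 ExNeuron classes, which together stood at 0.527% (0.517% to 0.537%). The order within the first 5 classes is not firm: Endothelial (0.740% to 0.891%) and Microglia (0.684% to 0.890%) overlapped, as did Oligodendrocyte (0.683% to 0.786%) and Astrocyte (0.659% to 0.727%). The Fibroblast interval (0.608% to 0.850%) also reached those of OPC (0.526% to 0.635%) and ExNeuron6 (0.525% to 0.631%). With 1 library there is no test between classes, and the intervals cover counting error only.

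Each member had its own profile over the classes. Fth1, strongly made by oligodendrocytes in brain, was highest in Oligodendrocyte nuclei at 1922 CPM (1670 to 2201), against 1189 (1142 to 1237) in all ExNeuron nuclei. A UMI was found in 46.6% and 35.3% of nuclei, and in 37.1% and 26.4% after thinning each nucleus to 250 UMIs. The rank of Oligodendrocyte nuclei is not firm. Their Fth1 interval overlapped those of Fibroblast (1188 to 2398), Microglia (1237 to 2211), Endothelial (1200 to 1857) and ExNeuron6 nuclei (1213 to 1752). Ftl1 was too sparse to rank, with 155 UMIs in all.

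Apoe reached 1440 CPM (1290 to 1602) in Astrocyte and 1520 (1215 to 1877) in Endothelial nuclei, and was still at 744 (707 to 782) in ExNeuron nuclei, which should make little of it. The share of nuclei with an Apoe UMI was 39.6% in Astrocyte (median 339 UMIs) and 23.9% in ExNeuron nuclei (median 325 UMIs), or 28.8% and 17.8% when thinned. Clu stood at 500 (413 to 599) in Astrocyte and 237 (217 to 259) in ExNeuron nuclei, and a UMI was found in 17.3% and 8.42%. Both genes were thus higher in Astrocyte nuclei than in ExNeuron nuclei as a whole beyond counting error, and present in ExNeuron nuclei as well. Clu was highest in Endothelial nuclei at 530 (358 to 757). Its intervals in Endothelial, Fibroblast (208 to 862), Oligodendrocyte (278 to 522) and ExNeuron6 nuclei (199 to 454) overlapped that of Astrocyte nuclei. Those of Microglia and OPC nuclei lay under it. For Apoe, the Endothelial, Fibroblast (857 to 1923), Microglia (635 to 1381) and OPC intervals (957 to 1459) overlapped that of Astrocyte nuclei. The astrocyte marker list, measured the same way, summed to 9146 in Astrocyte and 2555 in ExNeuron nuclei.

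Cst3 was highest in Microglia nuclei at 2321 (1802 to 2943), where 50.5% of nuclei held a UMI, and lowest in Oligodendrocyte nuclei at 800 (641 to 987), with 24.2%. ExNeuron nuclei stood at 932 (891 to 974) and 29.0%. The Microglia interval lay above those of all ExNeuron classes. The microglia marker list summed to 4028 in Microglia and 214 in ExNeuron nuclei, a far steeper contrast than that of Cst3.

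Actb was the flattest member, from 732 (553 to 950) in OPC to 1307 (1027 to 1641) in Endothelial nuclei. Tuba1a was highest in Oligodendrocyte nuclei at 1076 (890 to 1289), beside 648 (613 to 683) in ExNeuron nuclei. Eef1a1 ran from 379 (254 to 544) in OPC to 956 (635 to 1381) in Microglia nuclei, with 625 (592 to 660) in ExNeuron nuclei.

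With 10 CPM added to each class, the ratio of the highest to the lowest class was 1.78 for Actb, 1.86 for Fth1, 2.34 for Tuba1a, 2.46 for Apoe, 2.48 for Eef1a1, 2.88 for Cst3 and 3.69 for Clu. The median of these 7 members was 2.46, and that of the 898 genes with at least 500 UMIs was 2.82, with quartiles of 2.12 and 4.22. Of the 7, 5 were under the median of the 898 genes. Small classes, such as the 47 Fibroblast nuclei, widen these ratios by counting error.

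The genes whose level followed a member's most closely over the 12 classes, by Pearson's r of log CPM, were Plcl1 (0.87) and Rtn4 (0.87) for Fth1, Mt1 (0.90) and Zbtb20 (0.86) for Apoe, Ddx5 (0.88) and Dbi (0.87) for Cst3 and Map4 (0.84) and Cdc42 (0.77) for Clu. For Tuba1a they were Sept7 (0.88) and Scd2 (0.83), and for Eef1a1 Mbnl1 (0.89) and AY036118 (0.88). All classes share 1 library, so these are descriptions over 12 points.

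**Figure D5:**
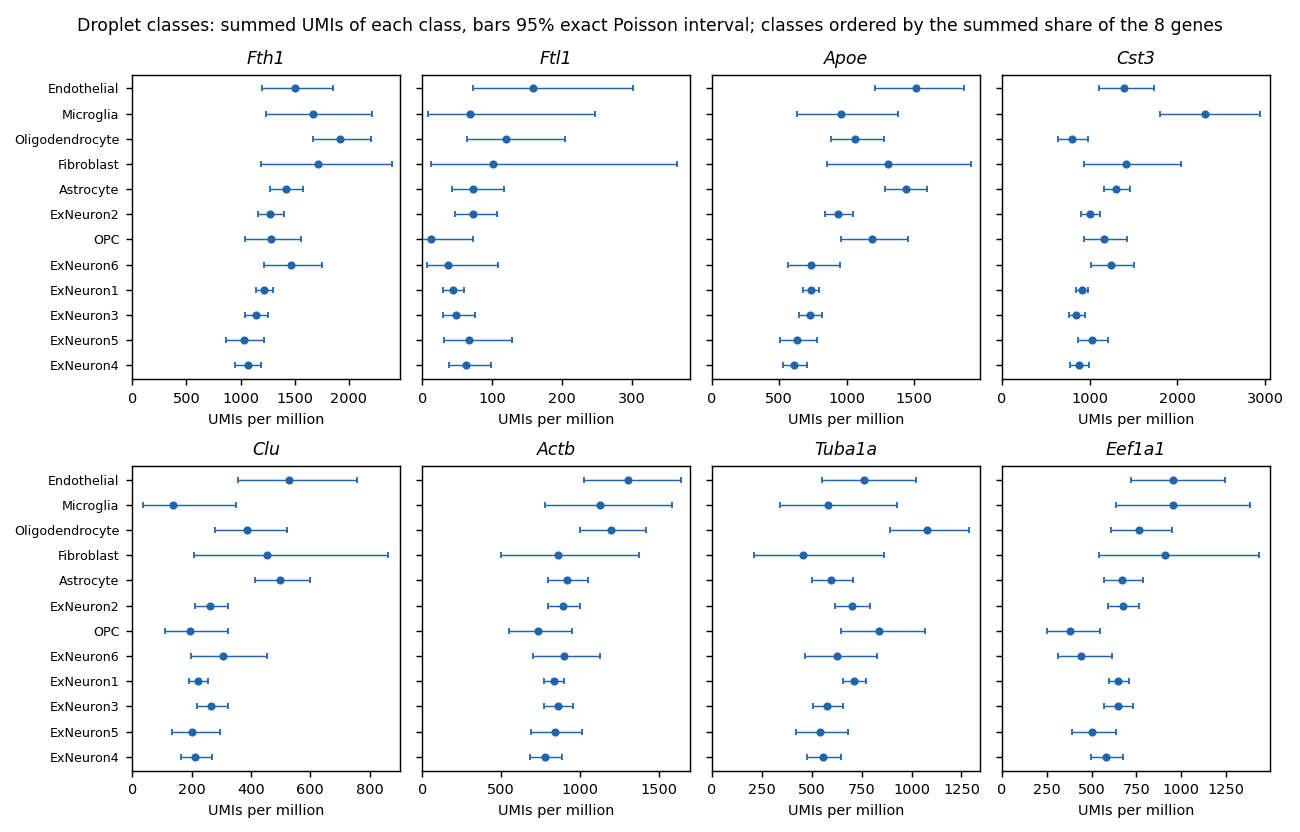
Level of each of the 8 genes (horizontal axis, UMIs of the gene per 1e6 UMIs of the class) in the 12 droplet classes, with bars for exact Poisson 95% intervals and classes ordered by the summed share of the 8 genes. Microglia are highest for Cst3 and Oligodendrocyte for Tuba1a, where its interval overlaps those of OPC, Endothelial and Microglia.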

How the data were processed

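The authors deposited raw counts of each gene for the wells of both bulk chemistries and for the plate nuclei, and raw UMI counts for the droplets, with annotation tables that give the fraction of mitochondrial counts and the percent of human counts. Genome builds hg19 and mm10 are named in the submitters' processing notes. No source used here names the aligner or the counting software, or says if UMIs were used to collapse the SCRB-seq reads. Per the file headers, SCRB-seq counts came from a combined human and mouse reference, and only mouse genes entered fits and totals.

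Wells and nuclei were grouped by the authors' annotation. The droplet nuclei kept the authors' 12 classes, and no doublet caller was run on them. The batch 3 plate table held 0 nuclei and was not analysed here. No count was filtered beyond edgeR's filterByExpr. Fits used edgeR 4.0.16 (TMM, quasi-likelihood) in R 4.3.3 over all genes, with Benjamini-Hochberg adjusted p under 0.05 as the call. DESeq2 1.42.0 was an alternative. The fits were tested on simulated data. Other values came from Python 3.11.15, numpy 2.4.6, pandas 2.3.3, scipy 1.17.1 and matplotlib 3.10.9. Intervals are exact (binomial or Poisson, confidence level 0.95), and a count of 0 allows up to 3 counts. Thinning drew 10000 counts per plate nucleus or 250 UMIs per droplet nucleus, which left out 183 droplet nuclei. Class likeness used log CPM with a pseudocount of 10 and genes with at least 500 UMIs, and its values for Actb are not reported here.

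All 8 members are named throughout. From each other gene list, at most 2 called genes each way in FFPE against frozen wells could be named. The members and all lists were chosen with earlier results of these data known. The contrast of contrasts in nuclei number and the settings with poscounts size factors, without the mineral oil wells of 10 nuclei, without the highest plate nucleus or without Ctsc were added after seeing the data.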

Additional observations from a re-analysis of the deposited data

Results flagged for a closer look

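Single wells stood far above the other 7 of their set in 12 of 62 sets of 8 SCRB-seq wells, by Dixon's test, which normally spread values would meet in about 1 in 20 sets. Several rest on few counts. Apoe reached 3107 CPM in a mineral oil well of 10 nuclei (51 of 16417 counts), 369 CPM in a room-temperature xylene well of 10 nuclei and 2109 CPM in a frozen well of 10 nuclei (39 of 18490 counts). That frozen well also held the highest Clu level of its set, 919 CPM, from 17 counts. Fth1 and Tuba1a each stood at 799 CPM in 1 mineral oil well of 10 nuclei, from 6 of 7512 counts apiece. Fth1 stood at 1039 CPM in a mineral oil well of 100 nuclei, Ftl1 at 628 CPM and Tuba1a at 869 CPM in room-temperature xylene wells of 10 nuclei, and Cst3 at 1045 CPM in a room-temperature xylene well of 100 nuclei. Actb stood at 898 CPM in a heated xylene well of 100 nuclei and at 266 CPM in a frozen well of 10 nuclei.

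The change from 100 to 10 nuclei differed between FFPE and frozen SCRB-seq wells by a test of the difference itself. On the log2 scale the difference was 2.16 for Apoe (edgeR adjusted p = 0.00623), 1.88 for Eef1a1 (adjusted p = 0.0375), -2.50 for Clu (adjusted p = 0.00907) and -2.03 for Ftl1 (adjusted p = 0.0440). The mineral oil wells of 10 nuclei, which are part of this contrast, held no count of Clu or Ftl1.

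Human FTL, the counterpart of Ftl1 on the combined reference, held 111 counts in the mineral oil wells, 80 in the heated and 83 in the room-temperature xylene wells, and 4 in the frozen wells. Of these, 1 mineral oil well held 59 and 1 heated xylene well 42. Mouse Ftl1 held 50, 77, 177 and 117 counts in the same groups. Human genes took 13.2%, 11.5%, 11.4% and 2.08% of all counts there. Where these counts come from was not tested.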

How the results depend on the processing

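Over the alternatives that could be fitted, 92 of 109 counts of called members stayed within 1.5-fold, and 251 of 294 log2 fold changes kept their direction and side of the threshold (24 lost the call, 13 gained it and 6 reversed). For mineral oil against heated xylene, the 4 called members became 1 with DESeq2's size factors, 2 with library size alone, 1 in wells of 100 nuclei alone and 1 without the mineral oil wells of 10 nuclei. The share of all genes called was 8.52% in the main fit and 6.48%, 7.31%, 13.1% and 7.98% in these settings. Actb reversed to 0.0090 in wells of 100 nuclei. For heated against room-temperature xylene, 1 became 2 with poscounts size factors, 3 with no filter, 3 with DESeq2's Wald test, 2 in wells of 100 or of 10 nuclei alone, 2 with nuclei number as a covariate and 4 without the mineral oil wells of 10 nuclei. Over all genes the share called in that contrast was 1.94%, and in these settings 2.50%, 15.9%, 5.46%, 5.99% (100 nuclei), 2.75% (10 nuclei), 5.74% and 7.51%. For FFPE against frozen SCRB-seq wells, 3 became 5 with the Wald test or without the mineral oil wells of 10 nuclei. The share of all genes called there was 58.0% in the main fit and 58.9% and 51.1% in these settings. Fth1 reversed to -0.48 and Cst3 to -0.14 with DESeq2's size factors, Fth1 to -0.031 and Cst3 to -0.076 in wells of 100 nuclei, and Apoe to 0.41 in wells of 10. For FFPE against frozen SMART-Seq2 wells, 2 became 6 with the Wald test and 1 to 3 when any 1 well was left out. The share of all genes called went from 4.09% to 7.04% with the Wald test, and to between 1.64% and 4.58% with 1 well left out. The cause of these moves was not tested.

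With nuclei number as a replicate block, the SMART-Seq2 fit of FFPE against frozen wells called 2 members and 429 genes (372 without the block). The same number of nuclei does not tie wells to an animal.

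Of the plate values of single members, 81 of 152 moved past the limit set for them when the median, thinning, summed counts, a minimum of 5 counts or the set without the highest nucleus was used. The members' share over plate nuclei was 0.893% (FFPE) and 0.488% (frozen) as a median. In droplets the mean over nuclei and the thinned value were 0.591% and 0.582% for all nuclei, 0.554% and 0.547% for the ExNeuron classes and 0.566% and 0.553% for ExNeuron1. All of these values lay above the counting interval of their group. So did the mean over nuclei for Astrocyte (0.732%) and the thinned value for ExNeuron5 (0.523%). Thinning SCRB-seq wells to 7500 counts left 0 members to test.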
